A study of Mus musculus with 2 samples.

Results

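Ccl21a and 5 genes linked to lymphatic vessels (Mmrn1, Reln, Prox1, Fxyd6 and Lyve1) were followed through 2 single-cell RNA libraries of mouse lung. The 6 genes were taken by symbol from 11407 genes listed in either count table. They were chosen by their measured UMI counts, with earlier results of the same libraries known, so their levels are given as a description and no test was made. All 6 were listed in the niche table. The distal table listed 3, namely Ccl21a, Fxyd6 and Lyve1, and Mmrn1, Reln and Prox1 were unlisted there, which is not a count of 0. Both libraries held CD45- cells, that is, cells lacking the surface protein shared by leukocytes, from lungs taken 7 days after Labelling-4T1 cells had been injected into a vein. 4T1 cells come from a mammary carcinoma of the mouse and form lung metastases, and the labelling version is engineered to release a fluorescent protein that neighbouring cells take up. The niche library held cells labelled as niche cells and the distal library cells labelled as distal lung cells. Strain, age, number of animals and any pooling are not given in the sources used here, nor is the gate that separated the libraries, and the labels name no lung without injected cells. With 1 library per group, a difference between the libraries had no replicate check, and every interval below is a 95% interval for counting error only.

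Lymphatic vessels drain fluid and leukocytes from tissue. Prox1 encodes the transcription factor that sets and keeps lymphatic endothelial identity. Ccl21 is a chemokine that lymphatic endothelium displays, and it guides dendritic cells and T cells that carry its receptor CCR7. Lyve1 encodes a hyaluronan receptor of initial lymphatic vessels that lung blood vessels also express, Mmrn1 the secreted glycoprotein multimerin 1, Reln the secreted glycoprotein reelin, and Fxyd6 a small membrane protein that modulates the sodium pump.

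After filtering, 1423 niche and 1987 distal cells remained, with 5139368 and 4781222 transcript molecules (unique molecular identifiers, UMIs) and medians of 2975 and 1975 UMIs per cell, so the distal cells were shallower. The libraries shared 7 barcodes. Levels are given as CPM, a gene's UMIs per 1000000 UMIs of the 10198 genes in both tables. Genes with at least 10 UMIs over both libraries were compared. A call, higher or lower, needed a 2-fold ratio and an interval that left out equality. Over all cells, 5.16% of 10198 genes were called higher in the niche and 6.08% lower.

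The sequence of Ccl21a bears on what its counts mean, since the mouse genome carries near-identical copies. In GENCODE vM21 (build GRCm38, the same as mm10), Ccl21a lies at chr4:42772860-42773993 on the minus strand and is protein-coding. The copies Ccl21b, Gm10591, Gm13304 and Gm21541, all on chromosome 4, have a coding sequence of the same 402 bases. These 4 copies were identical to each other over it and differed from Ccl21a at 2 bases, T84A and C194T (the base of Ccl21a first, counted from the first base of the start codon), an identity of 99.5%. Bases 54 to 224 of the coding sequence are shown, with the 2 variable bases in capitals, because they are the only coding difference by which a read could be placed.
Ccl21a: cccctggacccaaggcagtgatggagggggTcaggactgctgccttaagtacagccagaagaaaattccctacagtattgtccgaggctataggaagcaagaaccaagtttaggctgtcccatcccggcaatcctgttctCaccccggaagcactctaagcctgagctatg
Ccl21b: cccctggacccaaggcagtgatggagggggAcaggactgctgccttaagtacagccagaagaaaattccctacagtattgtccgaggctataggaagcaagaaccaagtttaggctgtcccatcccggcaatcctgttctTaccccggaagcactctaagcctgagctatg
None of the 4 copies was in either table. The counts come from the ends of transcripts, and the last 300 bases of the Ccl21a transcript differed from those of Gm13304 and Gm21541 at 3 bases. How reads that match several copies were assigned is not given in the sources used here. The counts below are therefore those of the row named Ccl21a, and the copies cannot be told apart in them.

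Upstream sequence was matched for 5 of the 6 members in the RefSeq table of build GRCm38.p6. The 250 bases before the start are shown for Ccl21a (chr4:42773992-42774241, minus strand) and Mmrn1 (chr6:60944067-60944316, plus strand), the pair of members with the highest correlation below. The RefSeq start of Mmrn1 lies inside the gene as GENCODE draws it (chr6:60924976-60989378, plus strand). Capitals mark matches, on either strand, to ACAAT (a SOX-type motif), TGTTTNC (a forkhead-type motif) or AGGAAG (an ETS-type motif).
Ccl21a: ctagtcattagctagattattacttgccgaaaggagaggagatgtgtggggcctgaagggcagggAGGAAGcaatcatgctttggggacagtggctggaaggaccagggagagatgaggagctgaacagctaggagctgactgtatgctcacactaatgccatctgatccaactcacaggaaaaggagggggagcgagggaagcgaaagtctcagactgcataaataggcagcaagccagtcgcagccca
Mmrn1: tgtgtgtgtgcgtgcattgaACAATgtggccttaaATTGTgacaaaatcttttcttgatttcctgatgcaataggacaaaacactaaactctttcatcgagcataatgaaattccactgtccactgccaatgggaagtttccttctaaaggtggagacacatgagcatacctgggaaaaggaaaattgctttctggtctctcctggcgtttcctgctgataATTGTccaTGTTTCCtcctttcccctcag
Mmrn1 had 3 matches to ACAAT and 1 to TGTTTNC, and Ccl21a had 1 match to AGGAAG. The motifs are common: of 32851 windows of this length, 27.7% held ACAAT, 17.8% TGTTTNC and 29.5% AGGAAG. Neither window held AGGTCA (in 14.0% of windows), TGANTCA (6.75%) or an NF-kB motif (1.41%), which were also searched on both strands. These are matches of letters, not known binding sites.

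Most Ccl21a molecules were in very few cells. In the niche library, 8445 Ccl21a UMIs lay in 272 of 1423 cells, and 205 of these cells held 1 UMI each. In the distal library, 2362 UMIs lay in 92 of 1987 cells, of which 80 held 1 UMI. The 10 highest cells carried 46.9% of the niche and 96.4% of the distal UMIs. At 20 or more UMIs there were 35 niche cells and 9 distal cells, and all but 1 of these fell in the same cluster.

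That cluster (number 17 of 20) had Ccl21a, Fxyd6, Apold1, Fcer1g, Flt4 and Maf among its leading genes, and is called lymphatic-like. It was named from lymphatic markers among which the members themselves stand, so the members' presence in it is part of its definition. Other lymphatic markers were present too: the lymphatic growth factor receptor gene Flt4 had a UMI in 22 of 34 niche and 5 of 11 distal cells, and podoplanin (Pdpn) in 18 and 4. The endothelial markers Cldn5 (34 of 34 and 11 of 11 cells), Egfl7 (32 and 9) and Pecam1 (24 and 9) were present, and of the venous list Vwf was at 0 in both libraries. Other genes of that list were present: Prss23 in 20 niche and 6 distal cells (654 and 776 CPM, against 192 and 255 CPM in the other endothelial-like cells) and Nr2f2, which lymphatic endothelium also expresses, in 21 and 7. Of the immune markers, 6 of 8 were at 0 in the niche cells, Ptprc (CD45) among them, and 3 of 4 listed ones in the distal cells. The exceptions in the niche were Fcer1g, an Fc receptor chain gene, with 95 UMIs in 20 of 34 cells, and Tyrobp with 1 UMI. The general epithelial markers held 1 UMI of Krt8 or fewer. The alveolar type 2 list summed to 263 CPM in the niche and 2640 CPM in the distal cells, and the club cell list to 463 and 186 CPM. Most of this was Sftpc in the distal cells (11 of 11 cells, 2112 CPM) and the secretoglobin gene Scgb1a1 in the niche cells (28 of 34 cells, 455 CPM). The other endothelial-like cells held like levels of these 2 genes, 1921 CPM of Sftpc in the distal and 478 CPM of Scgb1a1 in the niche library. The mesenchymal markers summed to 1858 and 466 CPM, mostly Sparc and Mgp, which endothelium also expresses, with Pdgfra and Pdgfrb at 0 in both. The part of RNA from other cells in these sums was not tested. The doublet caller marked none of the 45 cells.

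The cluster held 34 of 1423 niche cells (2.39%, exact binomial 95% interval 1.66% to 3.32%) and 11 of 1987 distal cells (0.554%, 0.277% to 0.988%). Of endothelial-like cells it made up 6.84% in the niche (34 of 497, 4.78% to 9.43%) and 0.842% in the distal library (11 of 1307, 0.421% to 1.501%). The intervals do not overlap, but the sort and the dissociation can set such shares. Mmrn1, Reln and Prox1 were never among the genes open to clustering. When Ccl21a, Fxyd6 and Lyve1 were left out too, the cluster held 36 and 11 cells. It was again named by markers that include the members. A stricter definition was possible only in the niche, where 25 cells held at least 3 members other than Ccl21a, and all 25 were in the cluster.

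In the 34 niche cells, Ccl21a ran from 21 to 528 UMIs per cell with a median of 201, which was 0.698% to 18.2% of a cell's UMIs with a median of 6.03%. In the 11 distal cells the counts were 477, 432, 385, 358, 205, 139, 117, 92, 58, 1 and 1 UMIs. The 2 libraries overlapped over almost their whole range, apart from the 2 distal cells with 1 UMI, which joined the cluster on other genes. Each of these held 1 Fxyd6 UMI, and 1 of them held 8 Lyve1 UMIs. Summed over the cells, Ccl21a stood at 64005 CPM in the niche (62613 to 65421) and 70344 CPM in the distal library (67476 to 73302), a log2 ratio of niche over distal of -0.14 (-0.20 to -0.07). In these cells 2.39% of 2556 genes were called higher in the niche and 2.50% lower, and Ccl21a was not among them. Without the highest cell of each library the levels were 62137 and 62783 CPM.

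Over all cells, Ccl21a stood at 1656 CPM in the niche and 496 CPM in the distal library, a log2 ratio of 1.74 (1.67 to 1.80). The lymphatic-like cells held 95.04% of the niche UMIs (8026 of 8445) and 95.9% of the distal UMIs (2265 of 2362). The libraries held 34 and 11 lymphatic-like cells, and the level within them differed by less than 2-fold. The ratios in the other classes, given below, were also positive. The part of the number of lymphatic-like cells in the library-wide ratio was not tested. The distal sum rested on few cells. Without the 5 highest cells of each library, 6163 niche and 505 distal UMIs were left, and the ratio was 3.51. This removal was unequal, as it took 5 of 34 niche and 5 of 11 distal lymphatic-like cells. The rise to 3.51 therefore cannot show how stable the ratio is.

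**Figure D1:**
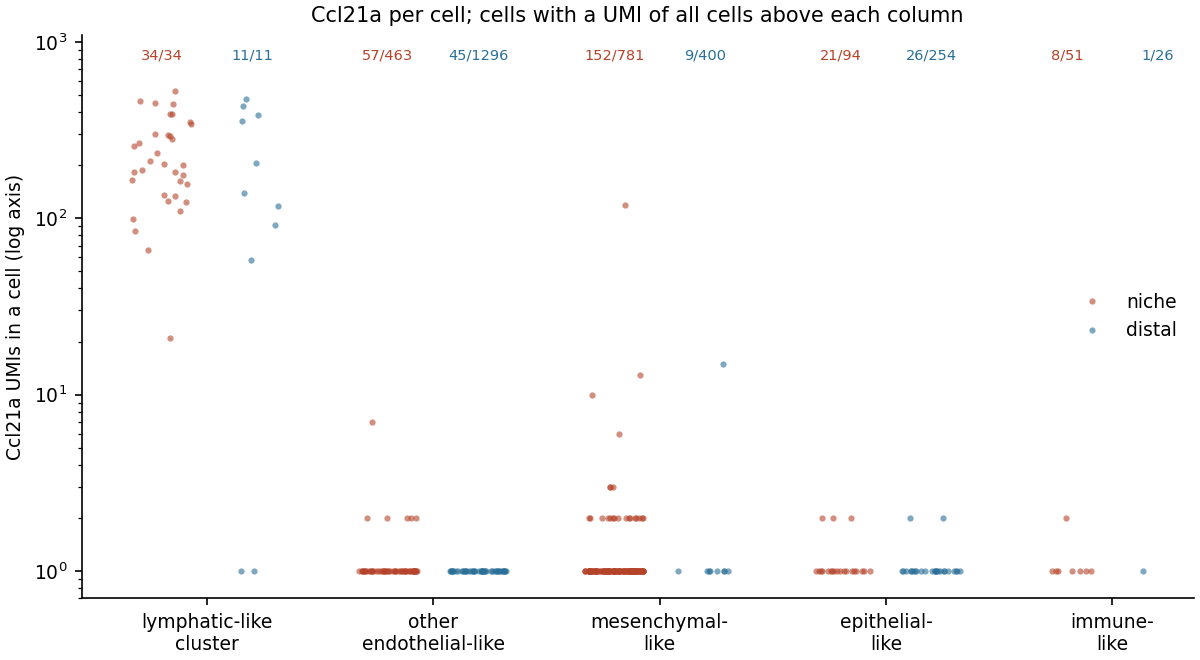
Ccl21a UMIs in each cell with at least 1 UMI, on a log axis, for the lymphatic-like cluster and 4 other cell sets in the niche (red) and distal (blue) libraries; the number of cells with a UMI and of all cells is printed above each column. The 34 niche lymphatic-like cells lie between 21 and 528 UMIs, 9 of 11 distal ones between 58 and 477, and other cells mostly at 1 to 3, with 1 niche mesenchymal-like cell at 119.

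Mmrn1 followed Ccl21a most closely. In the niche library it had 182 UMIs, of which 173 (95.1%) were in the lymphatic-like cells, where 33 of 34 cells held 1 to 15 UMIs with a median of 4 over all 34. Its level was 1380 CPM there (1182 to 1601) and 1.61 CPM (0.195 to 5.80) in the other endothelial-like cells. Pf4, a platelet gene, was at 0 in these cells, and Itga2b, another, had 1 UMI; multimerin 1 is also a platelet protein.

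Reln had 45 UMIs in the niche library, 43 of them (95.6%) in 19 of the 34 lymphatic-like cells, with at most 5 in a cell and 343 CPM (248 to 462). Prox1, the transcription factor gene, had 46 UMIs, 39 of them (84.8%) in 20 of the 34 cells, with at most 6 in a cell and 311 CPM (221 to 425). The intervals of Reln and Prox1 overlap, so their order is not resolved. The other 7 Prox1 UMIs lay in 6 cells, 3 of the UMIs in an endothelial-like cluster led by Scgb3a1 and Fabp4. At a median of 1 UMI per cell, a cell without a Reln or Prox1 UMI cannot be told from one that lacks the transcript. Neither gene, nor Mmrn1, entered the clustering, which used only genes in both tables, so their presence in the cluster was not part of how its cells were grouped, although they were among the markers that named it.

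Fxyd6 marked 2 kinds of cell. In the lymphatic-like cells it had 118 UMIs in 29 of 34 niche cells (0 to 16, median 3) and 35 UMIs in all 11 distal cells (1 to 11, median 1), or 941 CPM (779 to 1127) and 1087 CPM (757 to 1512), a log2 ratio of -0.22 (-0.76 to 0.38). Yet these cells held only 37.0% of the niche and 21.2% of the distal Fxyd6 UMIs. The mesenchymal-like cells held 61.4% and 70.9%, mainly cluster 6, led by the contractile and matrix genes Mustn1, Aspn and Tagln, and cluster 7, led by Pi16 and Dcn, genes of adventitial fibroblasts. In cluster 6 the level was 145 CPM in the niche (111 to 186) and 233 CPM in the distal library (173 to 308), and in cluster 7 it was 111 CPM (84.8 to 143) and 227 CPM (173 to 291). Clusters 6 and 7 overlap each other in both libraries. The other endothelial-like cells were nearly without it, at 3.21 CPM and 0.393 CPM.

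**Figure D2:**
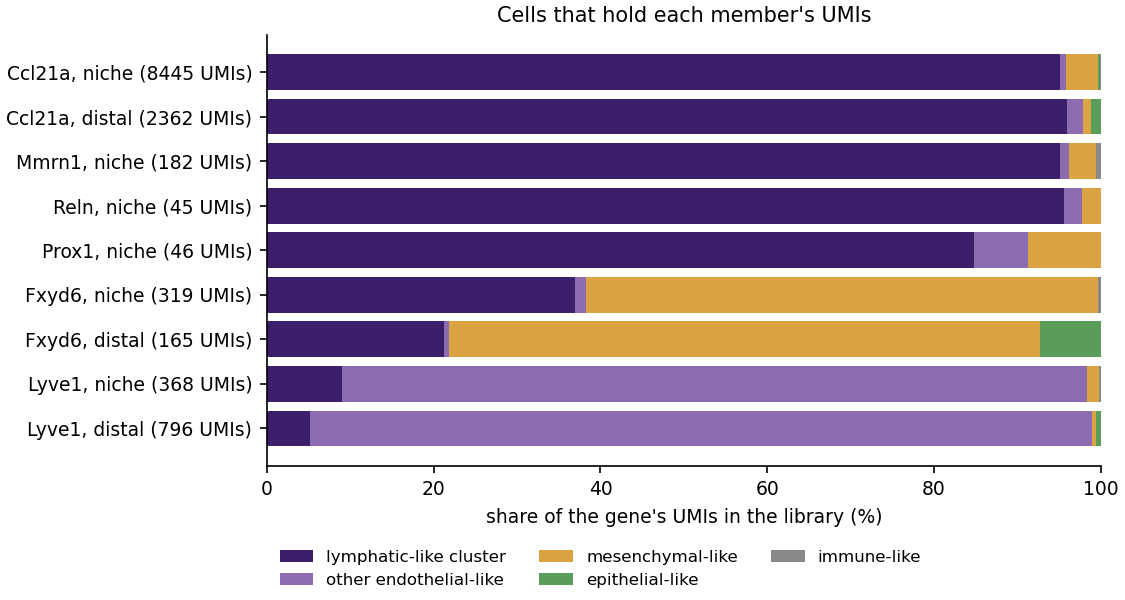
Share of each member's UMIs in a library (percent) held by the lymphatic-like cluster and by 4 other cell sets, 1 bar per gene and library; Mmrn1, Reln and Prox1 have no distal bar because that table does not list them. Ccl21a, Mmrn1, Reln and Prox1 lie mostly in the lymphatic-like cells (84.8% to 95.9%), Fxyd6 mostly in mesenchymal-like cells and Lyve1 mostly in other endothelial-like cells.

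Over all mesenchymal-like cells, Fxyd6 was lower in the niche, with 61.3 against 125 CPM and a log2 ratio of -1.03 (-1.37 to -0.69), called lower where 7.51% of 9972 genes were. The make-up of the class differed: clusters 5, 10 and 15, led by Eln, Cxcl9 and Cxcl10, held 56.3% of niche and 11.8% of distal mesenchymal-like cells, and clusters 6, 7 and 9 held 40.8% and 79.5%. Within clusters the ratio was -0.69 (-1.25 to -0.12) in cluster 6 and -1.03 (-1.57 to -0.49) in cluster 7, so it was negative there too, and in cluster 5 it was -0.15 with an interval on both sides of 0. The call over the class was lost in 2 settings, with at least 1000 genes per cell (-0.96, -1.35 to -0.55) and with cells thinned to 1200 UMIs (-0.64, -1.19 to -0.07), where the ratio was under 2-fold. Over all cells, Fxyd6 was at 62.6 CPM in the niche and 34.7 CPM in the distal library (log2 ratio 0.85, 0.58 to 1.13), the opposite sign, and was not called.

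Lyve1 lay mostly in endothelial-like cells outside the lymphatic-like cluster. It had 368 niche and 796 distal UMIs, of which those cells held 89.4% and 93.7%. Among their clusters the highest level was in cluster 11, led by Vwf and Prss23, with 893 CPM in the niche (654 to 1192) and 891 CPM in the distal library (771 to 1025). Clusters 12, 18 and 3 followed, at 425 to 462 CPM in the niche and 318 to 579 CPM in the distal library, and their niche intervals overlap. Over these other endothelial-like cells the level was 264 CPM in the niche and 293 CPM in the distal library (log2 ratio -0.15, -0.34 to 0.04). The library-wide Lyve1 level was lower in the niche (72.2 against 167 CPM, log2 ratio -1.21, -1.40 to -1.03) and was called so, alongside an endothelial-like share of 34.9% of niche and 65.8% of distal cells.

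Within the lymphatic-like cells, Lyve1 differed most between the libraries of the 3 members in both tables. The niche cells held 33 UMIs in 7 of 34 cells, 20 of them in the cell with the most Ccl21a, and the other 6 positive cells held 1, 1, 1, 2, 3 and 5. The distal cells held 41 UMIs in 7 of 11 cells, with counts of 16, 8, 5, 4, 4, 2 and 2. The level was 263 CPM (181 to 370) against 1273 CPM (914 to 1727), a log2 ratio of -2.27 (-2.98 to -1.58), called lower where 2.50% of genes were. Without the highest Lyve1 cell of each library it was -3.04 (-4.16 to -2.05), on 13 against 25 UMIs. With cells thinned to 1200 UMIs, 3 of 34 niche cells (8.82%, 1.86% to 23.7%) and 6 of 10 distal cells (60.0%, 26.2% to 87.8%) held a Lyve1 UMI. In the niche the lymphatic-like level lay within the interval of the other endothelial-like cells (237 to 294 CPM), and in the distal library its interval overlapped that of cluster 11.

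Of the niche lymphatic-like cells, the 7 with a Lyve1 UMI had 21 to 528 Ccl21a UMIs (median 200) and the 27 without had 66 to 463 (median 202), ranges that overlap. Summed per library size, Ccl21a was at 56245 CPM (53610 to 58976) in the cells with Lyve1 and 66487 CPM (64858 to 68147) in those without. These intervals do not overlap, but they hold counting error only and leave out the spread between cells. Whether cells with and without Lyve1 differ in Ccl21a was not tested. Reln was higher in the cells with Lyve1, at 592 CPM (351 to 936) against 263 CPM (170 to 388), with overlapping intervals and a median depth of 3765 against 2904 UMIs.

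**Figure D3:**
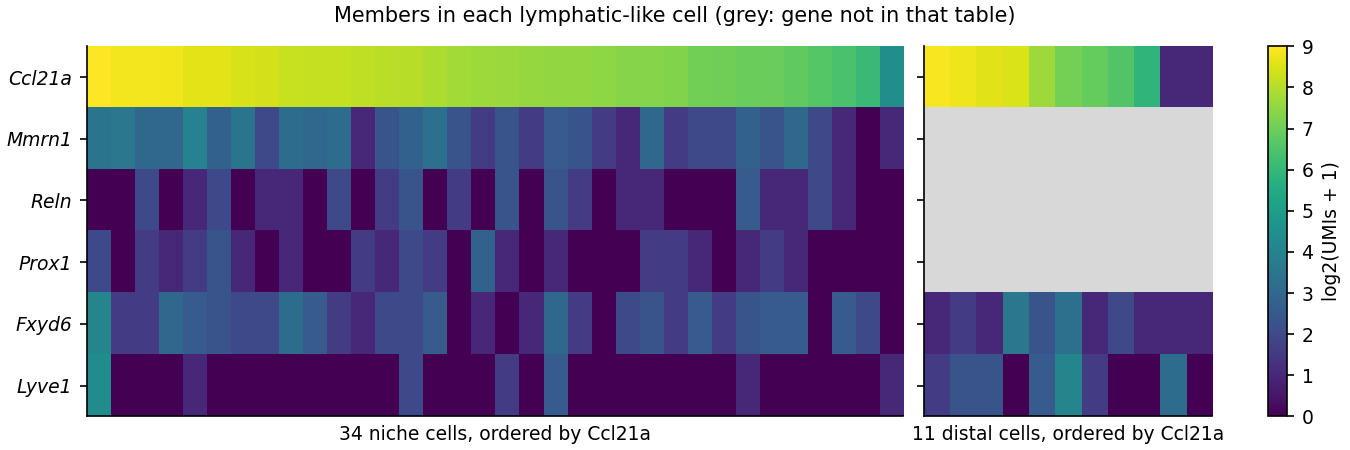
Each column is 1 lymphatic-like cell, 34 niche cells on the left and 11 distal cells on the right, ordered by Ccl21a; colour gives log2(UMIs + 1) of each member and grey marks genes the distal table does not list. Ccl21a and Mmrn1 fill almost every niche column, Reln and Prox1 19 and 20 of 34, and Lyve1 7, against 7 of 11 distal columns.

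In the niche library, 4 or more members were detected together only in lymphatic-like cells. The members were among the markers that named this cluster, so their co-detection in it is a description. Of the 34 niche lymphatic-like cells, 2 held 2 members, 7 held 3, 12 held 4, 9 held 5 and 4 held all 6. Of the 1389 other niche cells, 919 held none, 417 held 1, 50 held 2, 3 held 3 and none held more. Of 38 niche cells with an Mmrn1 UMI, 36 held Ccl21a, 21 held Prox1 and 19 held Reln. Fxyd6 and Lyve1 met in only 6 cells, out of 162 with Fxyd6 and 149 with Lyve1, and 5 of the 6 were lymphatic-like. In the distal library, 7 of 11 lymphatic-like cells held all 3 listed members and 1 of 1976 other cells did.

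As a description over the 1423 niche cells, which share a library and its depth, the Pearson correlation of log-normalized levels was 0.83 for Ccl21a with Mmrn1, 0.72 for Mmrn1 with Reln, 0.69 for Mmrn1 with Prox1 and 0.43 for Ccl21a with Fxyd6. For Lyve1 it was 0.05 with Ccl21a and -0.04 with Fxyd6. The 10 genes most like the mean of the 6 members among 9555 niche genes with 30 or more UMIs were Ptx3 (correlation 0.70), Thy1, Gm525, Tbx1, Mrc1, Gpm6a, Lrrn4cl, Sh3gl3, Apold1 and Stab1 (0.48). Ptx3 had 117 of its 142 UMIs in the lymphatic-like cells, Thy1 133 of 197 and Gm525 58 of 59. The distal list, over 3 members and 1987 cells, was led by Tbx1 (0.41) and Fgl2 (0.36). The lists shared 1 gene of 10 each, Tbx1, and 5 of the 10 niche genes were in the distal table at all. Taken singly, Lyve1 was most like the endothelial genes Ctla2a, Egfl7 and Plvap in the niche. The genes most like Fxyd6 differed between the libraries. In the distal library they were Dcn (0.38), Aspn (0.38) and Tgfb3 (0.36), genes of mesenchymal cells. In the niche they were Ptx3 (0.43), Thy1 (0.41) and Gm525 (0.40), whose UMIs lay mostly in the lymphatic-like cells.

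Outside the lymphatic-like cluster Ccl21a was spread thinly over every class, though not over every cluster. In the niche, cluster 18, an endothelial-like cluster led by Ubd and Ido1, had 0 UMIs in 29 cells (up to 28.5 CPM). Its median depth was 4978 UMIs. In the distal library, where cluster 18 had 2 UMIs in 11 cells, the mesenchymal-like clusters 5, 6 and 16 had 0. In the niche library it had a UMI in 19.5% of mesenchymal-like cells (152 of 781), 22.3% of epithelial-like cells (21 of 94), 15.7% of immune-like cells (8 of 51) and 12.3% of the other endothelial-like cells (57 of 463), at median depths of 3557, 4140, 2014 and 2295 UMIs. In the distal library the shares were 2.25% (9 of 400), 10.2% (26 of 254), 3.85% (1 of 26) and 3.47% (45 of 1296), at 2081, 5073, 1951 and 1713 UMIs. In both libraries the epithelial-like share was the highest, and these cells were also the deepest. Whether any of these shares reflects expression in the cells themselves was not tested. Thinned to 1200 UMIs per cell, the niche shares were 5.89% (4.34% to 7.78%) in mesenchymal-like, 3.19% (0.663% to 9.04%) in epithelial-like, 11.8% (4.44% to 23.9%) in immune-like and 6.70% (4.59% to 9.37%) in other endothelial-like cells, so that the epithelial-like share was then the lowest, with intervals that all overlap. The distal ones were 0.847%, 2.39%, 0% (0 of 24, which allows up to 12.5%) and 2.30%, after 46, 3, 2 and 295 shallower cells had been left out.

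A few cells outside the cluster held more. In the niche, 5 of them held 5 or more Ccl21a UMIs, with 119, 13, 10, 7 and 6. The cell with 119 lay in cluster 9, led by the alveolar fibroblast gene Tcf21, and also held 5 Mmrn1 UMIs and 1 Prox1 UMI in 4762 UMIs. The doublet caller did not mark it. It set the level of that cluster, 716 CPM with it and 77.3 CPM (42.3 to 130) without it. In the distal library 1 such cell held 15 UMIs, in cluster 7, and was called a doublet. Without cells of 5 or more UMIs, the niche levels were 49.1 CPM (37.6 to 63.1) in other endothelial-like, 53.5 (45.7 to 62.1) in mesenchymal-like, 58.6 (37.5 to 87.1) in epithelial-like and 73.0 (33.4 to 139) in immune-like cells, all overlapping. The distal levels were 17.7 (12.9 to 23.7), 8.61 (3.72 to 17.0), 23.4 (15.6 to 33.9) and 18.3 (0.463 to 102) CPM.

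Over all cells outside the cluster with under 5 UMIs, it was 53.3 CPM in the niche and 17.4 CPM in the distal library, which is 3.22% and 3.50% of each library's own Ccl21a level. By class, niche first, this fraction was 3.23% and 1.73% in mesenchymal-like cells, and 3.54% and 4.72% in epithelial-like cells. The distal total to which it is set rests on few cells, as above. The ratios between libraries in the other classes stood beside the library-wide 1.74 as follows: 1.62 (1.06 to 2.20, 68 against 45 UMIs) in other endothelial-like cells, 1.99 (1.40 to 2.69, 318 against 23) in mesenchymal-like, 1.32 (0.47 to 2.16, 24 against 28) in epithelial-like and 1.49 (-0.85 to 7.45, 9 against 1) in immune-like cells. Different clusters held most of the epithelial-like class: cluster 13, led by Scgb1a1, had 69 niche and 9 distal cells, and cluster 4, led by Sftpc, had 17 and 216. The first 3 met the 2-fold rule, where 1.59%, 3.35% and 12.4% of genes were called higher in the niche and 1.73%, 7.51% and 10.3% lower. In immune-like cells, where Ccl21a was not called, 6.84% of 2135 genes were called higher and 1.97% lower. The mesenchymal-like value turned on single cells in both libraries. It was 3.42 (2.51 to 4.73) with doublets removed, which took out the distal doublet with 15 UMIs. The niche cell with 119 of the 318 UMIs stayed in that value. Without the highest cell of each library it was 2.77 (1.85 to 4.09, 199 against 8 UMIs). By cluster it was -0.58 (-1.46 to 0.34) in cluster 7, which held the distal doublet. In clusters 5, 6 and 9 it was 3.45, 5.25 and 5.87. These values rested on 41, 37 and 133 niche UMIs against 0, 0 and 3 distal UMIs. The intervals of clusters 5 and 6 began at 0.49 and 2.28 and had no upper end. That of cluster 9 was 4.51 to 8.39, but 119 of its 133 niche UMIs lay in 1 cell, and 14 were left without it. In cluster 6, single niche cells held 13 and 6 of the 37 UMIs. With at least 1000 genes per cell, the value for other endothelial-like cells was 0.90 (0.33 to 1.47) and no longer met the rule. The part of free RNA in these values was not tested.

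**Figure D4:**
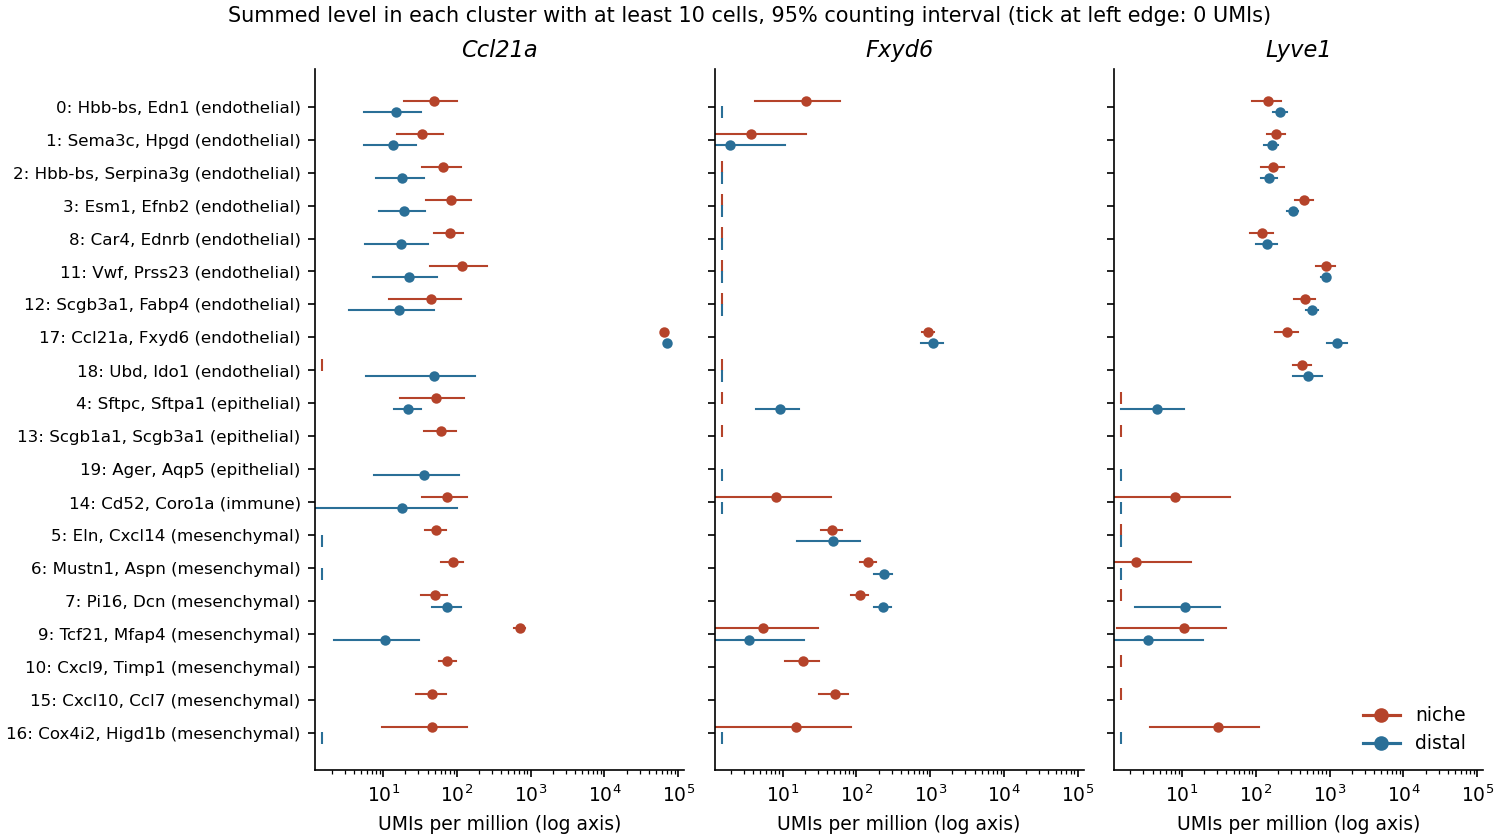
Summed CPM of Ccl21a, Fxyd6 and Lyve1 in every cluster with at least 10 cells in a library, niche in red and distal in blue, on log axes with 95% counting intervals that are clipped at the left edge; a tick at the left edge marks 0 UMIs. Ccl21a has 1 cluster far above the rest, Fxyd6 also has clusters 6 and 7, and Lyve1 runs through the endothelial-like clusters.

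**Figure D5:**
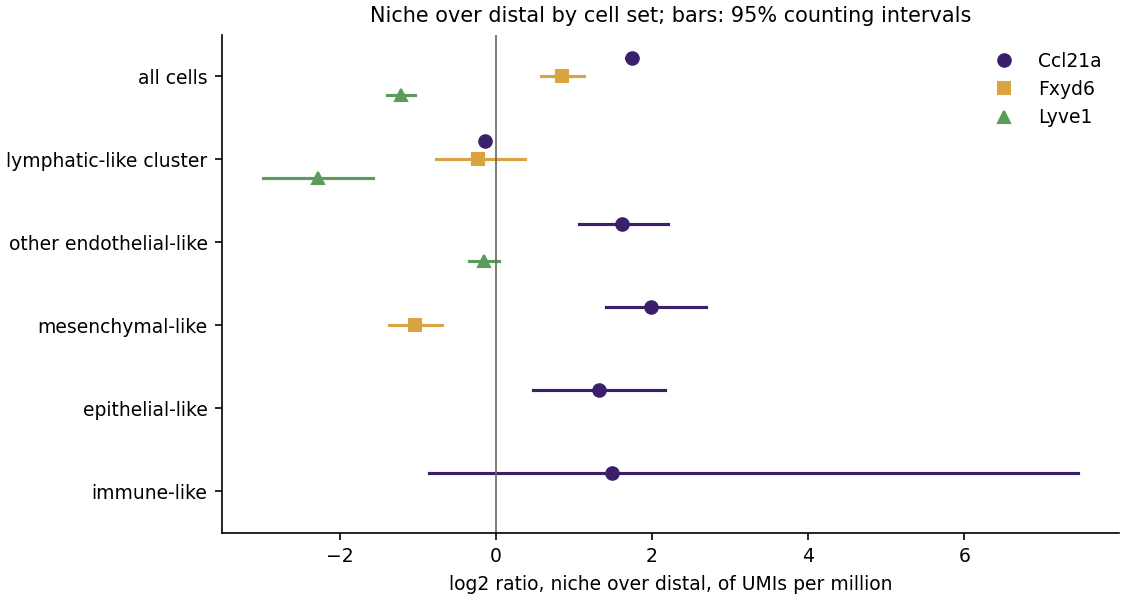
The log2 ratio of niche over distal CPM with its 95% counting interval for the 3 members in both tables, by cell set, for sets with at least 10 UMIs and none at 0. Ccl21a is near 0 in the lymphatic-like cells (-0.14) and 1.32 to 1.99 in the other classes, and Lyve1 is -2.27 in lymphatic-like and -0.15 in other endothelial-like cells.

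The other genes of the pathways come from lists chosen with earlier results of these libraries known. Of 30 lymphatic identity genes, 22 were in both tables and 2, Thy1 and Ptx3, in the niche table only. Among endothelial-like cells, 9 of 21 compared genes were called higher in the niche and 0 lower, with a median log2 ratio of 0.40 against -0.04 over all genes, where 2.12% of genes were called higher and 1.58% lower. They were Pdpn, Nr2f2, Maf, Itga9, Nrp2, Tbx1, Sema3d, Timp3 and Cp. With the lymphatic-like cluster left out, 1 of 16 compared genes was called higher, Cp, and 0 lower. Of 9639 genes compared in those cells, 1.59% were called higher and 1.73% lower. Pdpn, Maf, Itga9, Tbx1 and Sema3d then had too few UMIs to be compared, so for them no call was possible. Nr2f2, Nrp2 and Timp3 were compared and not called. Pdpn had 42 niche and 13 distal UMIs in endothelial-like cells, of which 40 and 11 were in lymphatic-like cells. The transcription factor gene Maf had 76 and 15, of which 71 and 15 were. Within the lymphatic-like cells, 1 of 18 was called higher and 4 lower, with a median of -0.07 against -0.02 over all genes, where 2.39% of genes were called higher and 2.50% lower. The higher one was the integrin gene Itga9 (25 against 1 UMIs). The lower ones were Fgl2 (23 against 30 UMIs, log2 ratio -2.34), Pard6g (38 against 29, -1.58), Tbx1 (26 against 16, -1.28) and Cp, the ceruloplasmin gene (27 against 16, -1.22).

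Of the growth factor axis, the ligand genes Vegfc, Figf (VEGF-D) and Angpt1 had no UMI in lymphatic-like cells of either library. Tek, the receptor gene for angiopoietins, had 1 niche and 0 distal UMIs there. Flt4, the receptor gene for VEGF-C and VEGF-D, had 67 niche and 10 distal UMIs there, its co-receptor Nrp2 67 and 12, and Kdr 44 and 10. Figf lay in mesenchymal-like cells (472 of 477 niche and 426 of 440 distal UMIs), where it was 148 against 456 CPM, a log2 ratio of -1.63 (-1.82 to -1.43). It was called lower there, where 7.51% of 9972 genes were called lower and 3.35% higher. Of the 14 axis genes compared there, 8 were called lower and 0 higher. Besides Figf these were Kdr, Angpt2, Tek, Tie1, Efnb2, Adm and Calcrl. Figf was among the leading genes of cluster 9, which held 71 of 781 niche and 125 of 400 distal mesenchymal-like cells. The part of this make-up in the Figf ratio was not tested. Of the 9 genes compared in lymphatic-like cells, 0 were called higher and 1 lower, Adm, an adrenomedullin gene (19 against 14 UMIs). Over all genes compared in these cells, 2.39% were called higher and 2.50% lower. Among all endothelial-like cells, 2 of 13 axis genes were called higher, Nrp2 and Angpt2, and 0 lower, where 2.12% and 1.58% of genes were.

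Of 14 genes of the CCL21 and CCR7 axis, 7 were in both tables and 3 in the niche table only. Ccl19, the other ligand of CCR7, was in mesenchymal-like cells, at 246 niche and 24 distal UMIs (77.0 against 25.7 CPM, log2 ratio 1.56, 0.98 to 2.25), and had 0 UMIs in niche and 1 in distal lymphatic-like cells. The receptor gene Ccr7 was listed in the niche table only, with 51 of 56 UMIs in immune-like cells, and Cxcl13, another lymphoid chemokine, had all 155 UMIs in mesenchymal-like cells. Ackr4, a scavenger receptor of CCL19 and CCL21, lay in other endothelial-like cells (32 of 33 niche and 73 of 77 distal UMIs). Of the partners of reelin and hyaluronan, 2 genes were compared in lymphatic-like cells and 0 were called; the hyaluronan receptor gene Cd44 and the matrix gene Vcan had no UMI there. Of the FXYD family and sodium pump genes, 5 were compared there and 0 called. Of the multimerin family, Mmrn2 (19 against 4 UMIs) and Emilin1 (26 against 2) were compared and not called. Over all genes compared in lymphatic-like cells, 2.39% were called higher and 2.50% lower.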

How the data were processed

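The authors deposited 1 table of UMI counts for each library, whose values are unnormalized. Cell Ranger 2.1.1, R 3.4.1 and the build mm10 are named in the submitters' processing notes. No gene listed in the niche table summed to under 10 UMIs, and none in the distal table to under 12. Barcodes needed 500 genes and no more than 10% of UMIs from mitochondrial genes (50 niche and 9 distal barcodes left out). Scrublet called 10 niche and 24 distal doublets, which were kept. Counts scaled to 10000 per cell, logged and scaled per gene (2000 variable genes, 20 principal components, 15 neighbours) were clustered by Leiden at resolution 1 (scanpy 1.11.5, leidenalg 0.10.2, Python 3.11.15). Clusters were named by the marker list with the highest mean detection, with at least 3 markers in 25% of cells, and lymphatic-like with at least 4 lymphatic markers, Ccl21a among them. The text names the members, the 10 genes most like their mean in each library, the 3 most like each member, and list genes that were called. Ratios of summed UMIs had 0.5 UMI added, with exact conditional binomial intervals; levels have exact Poisson and shares Clopper-Pearson intervals (SciPy 1.17.1). The calls were tested on simulated counts drawn with counting error only, which cannot show how they behave under spread between cells or between libraries. Members, marker lists and pathway lists were chosen with earlier results of these data known, and other genes named were chosen after their values were seen. Some results are not reported here.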

Additional observations from a re-analysis of the deposited data

Results flagged for a closer look

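The 50 niche barcodes left out by the filters held 7 Ccl21a UMIs, 1 in each of 7 barcodes, above the 3 UMIs that a count of 0 allows. Of the kept niche cells outside the lymphatic-like cluster, 238 of 1389 (17.1%) held a Ccl21a UMI, a share no smaller than 7 of 50. The left-out barcodes are in no comparison. The 9 distal barcodes left out held 0. The other members had no UMI in the left-out barcodes of either library, apart from 1 Lyve1 UMI in the niche.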

How the results depend on the processing

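With 1 library per group, only counting error and the choices of filter, clustering and scaling could be examined. Of the alternatives for the main results, 43 stayed within the counting interval of the reported value and 12 moved outside it, and none changed sign. Over all cells, the Ccl21a ratio was 1.54 with at least 1000 genes per cell and 2.07 with cells thinned to 1200 UMIs. It was 3.51 without the 5 highest cells of each library, an unequal removal of 5 of 34 niche and 5 of 11 distal lymphatic-like cells. In mesenchymal-like cells it was 3.13 with at least 1000 genes, 3.42 with doublets removed, 3.31 when thinned, 3.42 without the 5 highest cells and, among settings chosen after seeing the data, 3.45 without scaling of genes, 3.45 with the members left out of clustering and 2.77 without the highest cell of each library. The distal sum there was 23 UMIs, 15 of them in 1 cell that was called a doublet, and 8 without it. In other endothelial-like cells it was 0.90 with at least 1000 genes; the cause was not tested. The share of niche Ccl21a UMIs in lymphatic-like cells was 75.4% when these were the 25 cells with at least 3 other members, by construction. That definition gave no value for the distal library, which lists only 2 other members, or for the ratios. Of the alternatives for Fxyd6 and Lyve1, 28 stayed within the interval and 2 did not: Fxyd6 in mesenchymal-like cells when thinned (-0.64) and Lyve1 in lymphatic-like cells without its highest cell (-3.04). Fxyd6 in mesenchymal-like cells was no longer called when thinned or with at least 1000 genes (-0.96). No paired analysis was possible because each group is 1 library.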
